A study of Mus musculus and Rattus norvegicus with 24 samples.

Results

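The subject is how the effect of arterial occlusion on brain RNA in the rat changed from 2 h to 6 h. It was measured for each gene as the difference between pMCAO and sham at 6 h minus the same difference at 2 h. pMCAO is permanent middle cerebral artery occlusion, which models stroke: a coated filament is pushed up to where the artery begins and tied there. All 12 rat arrays of the 24 arrays in the series entered, in 4 groups of 3 animals with 1 array each: 2 h sham, 2 h pMCAO, 6 h sham and 6 h pMCAO. All were adult male Sprague-Dawley rats of 8 to 12 weeks and 270 to 300 g under isoflurane, with the left artery occluded in the pMCAO groups and the same surgery without occlusion in the sham groups. A piece of 3 by 3 mm came from the penumbra, which surrounds the core of the infarct, or from the matching area of sham brains, so no group is an unoperated control. Values are log2 expression on whole-transcript arrays with each array's own median subtracted, so 0 is the median of an array. They are given in the order of replicates 1, 2 and 3. Of 36685 transcript clusters, 18511 carried a single gene symbol, which left 18166 genes, and precision was limited by the 3 arrays per group.

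Occlusion of a cerebral artery starves the tissue of oxygen and glucose and sets off waves of depolarization. Transcription is known to respond in stages: immediate early genes such as those of the AP-1 family come first, and stress response genes, chemokines and the receptors and inhibitors of cytokine signalling follow. Endothelial cells of brain vessels form the blood-brain barrier, where tight junctions seal the gaps and transporters of the organic anion and ABC families control passage of drugs and hormones. A change of the occlusion effect can come from a move of the pMCAO animals, of the sham animals, or of both, and the design with a sham group at each time lets these be set side by side.

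Before centring, medians of the 2 h arrays lay between 6.67 and 6.75 and those of the 6 h arrays between 5.82 and 5.87, and array minima likewise differed (2.57 to 2.73 and 0.96 to 1.09). Time of sampling and array processing therefore cannot be told apart when 6 h is compared with 2 h within pMCAO or within sham. The subtraction of sham at the same time removes a constant shift that pMCAO and sham share. A difference of scale or of floor between the times would remain in the change of the effect, and its part there was not tested. Interquartile ranges of the arrays ran from 2.54 to 2.75 at 2 h and from 2.66 to 2.77 at 6 h. Replicate 2 of 2 h pMCAO stood apart from the other 2 h pMCAO arrays on the first principal component of its time (26.0 against 1.25 and 2.62). Replicate 2 of 2 h sham lay apart from the other 2 h sham arrays in the same direction (-2.48 against -14.6 and -12.8). Markers of cortical glutamatergic neurons averaged 3.14 to 3.69 above the array median over the 12 arrays, those of oligodendrocytes 3.93 to 4.46 and those of astrocytes 3.12 to 3.51, while those of striatal projection neurons averaged 0.80 to 1.22.

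The occlusion effect changed for 40 genes, 0.22% of the 18166 tested (limma, Benjamini-Hochberg adjusted p under 0.05): 31 rose from 2 h to 6 h (0.171%) and 9 fell (0.0495%). Rises made up 77.5% of the calls, against 62.5% of 32 after quantile normalization and 59.5% of 42 after interquartile range scaling. An unadjusted p under 0.05 was reached by 1772 genes (9.75%), and 46.5% of all changes were above 0. Among called genes, the largest rises on the log2 scale were in the stress response gene Gadd45b (2.10) and the chemokine gene Ccl4 (1.99). The metallothionein gene Mt1 (1.99) and the oncostatin M receptor gene Osmr (1.84) came next. The largest fall among called genes was in Slco1a4 (-1.91), an organic anion transporter of the blood-brain barrier. Over all genes, called or not, changes ran from -2.25 to 2.10. Of the 31 rises, 26 were genes that passed the threshold only at 6 h when pMCAO was set against sham at each time, 2 had been below sham at 2 h and were above it at 6 h (Zbtb16 and Fam43a), and 1 passed above sham at both times (Jun). The other 2 were Hes1, below sham at 2 h alone, and Zfp189, past the threshold at neither time. Of the 9 falls, 7 passed the threshold only at 6 h, below sham, and 2 only at 2 h, above sham (Tnfrsf11b and Qrfprl). Over all genes, 1026 differed from sham at 6 h (5.65%), 478 above (2.63%) and 548 below (3.02%), against 17 at 2 h (0.0936%), 8 above (0.044%) and 9 below (0.0495%). The change itself was called for 29 of the 478 and for 7 of the 548. The estimates had opposite signs at the 2 times in 27 of the 40 (67.5%), against 39.4% of all genes, which describes the 40 and tests nothing, since opposite signs make a change large. No called gene had an effect of one sign that was smaller at 6 h than at 2 h, a pattern that the point estimates of 3928 of all genes tested (21.6%) showed. This too tests nothing, since in that pattern the change is no larger than the 2 h effect, and few genes passed at 2 h.

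**Figure D1:**
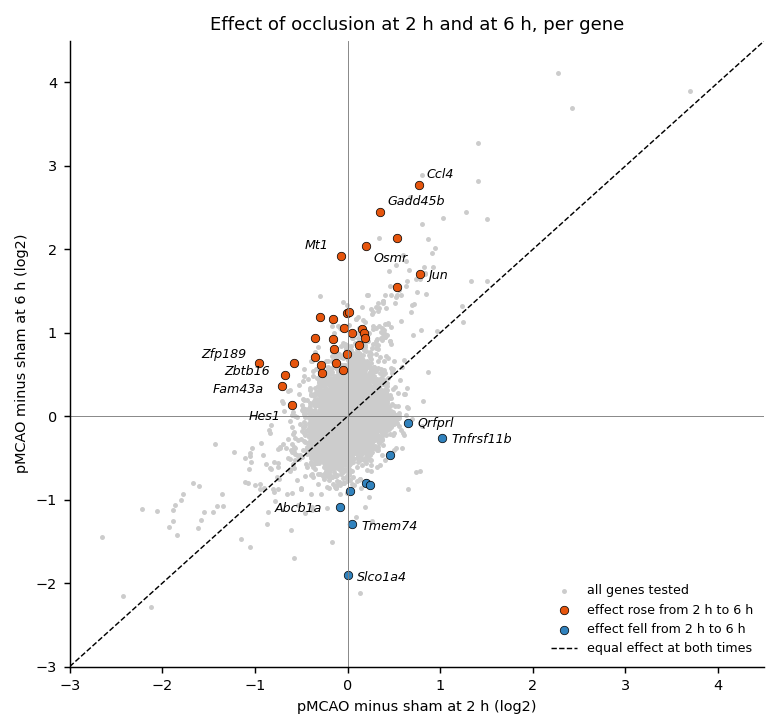
Difference between pMCAO and sham at 2 h (x axis) and at 6 h (y axis) for all 18166 genes, in log2 units, as means of 3 arrays minus means of 3 arrays. Genes whose effect rose (31, orange) lie above the dashed line of equal effect, and those whose effect fell (9, blue) below it, with Gadd45b at 0.35 and 2.45 and Slco1a4 near 0 at 2 h and at -1.91 at 6 h.

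A core of 10 of the 40 genes passed the threshold under each of the 12 omissions of an array and each of the 11 other settings tried: Gadd45b, Mt1, C3h11orf96, Il6r, Zbtb16, Fam43a, Rasl11a, Clk1, Tnfrsf11b and Slco1a4. The other 30 lost the call without at least 1 array. The count depended on single arrays: without 2 h sham replicate 1 it was 11, without 2 h sham replicate 3 or 6 h sham replicate 3 it was 19, and without 2 h pMCAO replicate 3, 6 h sham replicate 2 or 6 h pMCAO replicate 1 it was 22, 22 or 23. It was 126 without 6 h pMCAO replicate 2, with all 40 genes among them, and 49 without 2 h pMCAO replicate 2, with 31 of the 40. No gene of the 40 changed direction under any of these settings.

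**Figure D2:**
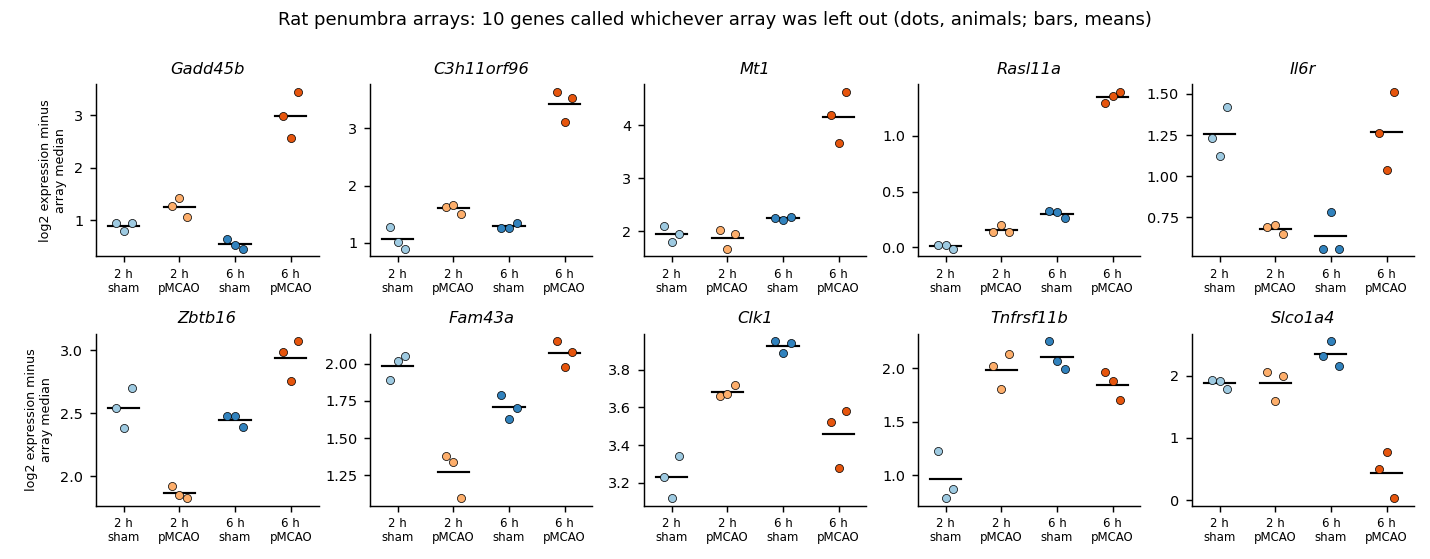
Log2 expression minus the array median (y axis, scaled per panel) in each of the 4 groups (x axis) for the 10 genes called under every setting, with 1 dot per animal and bars at group means. The 3 arrays of 6 h pMCAO lie above all others for Gadd45b, C3h11orf96, Mt1, Rasl11a and Zbtb16 and below all others for Slco1a4. The 2 h and 6 h sham arrays overlap only for C3h11orf96 and Zbtb16, and in 40.4% of all genes they do not overlap.

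Among stress and signalling genes, Gadd45b, a stress-induced regulator of growth arrest and MAP kinase signalling, read 0.95, 0.80 and 0.94 in 2 h sham, 1.27, 1.42 and 1.06 in 2 h pMCAO, 0.64, 0.53 and 0.46 in 6 h sham and 2.98, 2.56 and 3.44 in 6 h pMCAO. The 3 arrays of 6 h pMCAO lay above the other 9, and the 2 h pMCAO arrays above those of 2 h sham. Its effect was 0.35 at 2 h, which did not pass (limma adjusted p = 0.752), and 2.45 at 6 h, a 5.46-fold excess over sham. It changed by 2.10 ± 0.24 (SE, n = 3 per group, limma adjusted p = 0.00512). In the list of apoptosis, Gadd45 and p53 target genes, 1 of 21 measured members rose and 1 fell. Over all genes tested 0.171% rose and 0.0495% fell, the shares that stand beside every such list count below. Lists here and below were chosen with earlier results of these data known, so their counts and shares describe them and test nothing. The related Gadd45g (1.41 at 2 h and 3.28 at 6 h) and Gadd45a (-0.14 and 0.99) did not pass for the change (limma adjusted p = 0.201 and 0.109). Ddit3, the transcription factor CHOP of the integrated stress response, read 1.40, 1.18 and 1.33 in 2 h sham, 1.26, 1.18 and 1.02 in 2 h pMCAO, 0.99, 0.86 and 0.72 in 6 h sham and 1.47, 1.63 and 1.89 in 6 h pMCAO. It was higher at 6 h in pMCAO and lower at 6 h in sham, so that its effect went from -0.15 to 0.81, a change of 0.96 ± 0.16 (SE, n = 3 per group, limma adjusted p = 0.031). Of 21 measured genes of the unfolded protein and integrated stress response, 1 rose, 0 fell and 20 missed the threshold, at a median change of 0.20, against a median of -0.02 over all genes tested. Chac1 (-0.01 at 2 h and 0.81 at 6 h), Atf4 (0.17 and 0.65) and Hspa5 (0.17 and 0.62) were among those that did not. Ddit3 lost the call without 2 h sham replicate 1 or 3, 2 h pMCAO replicate 2 or 3 or 6 h sham replicate 2 or 3 (limma adjusted p = 0.0537 to 0.112), and after quantile normalization or with the replicate block (up to 0.0758).

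Of cytokine signalling genes, the chemokine Ccl4, a ligand that draws monocytes and other leukocytes, read -1.34, -1.62 and -1.65 in 2 h sham, -1.12, -0.51 and -0.66 in 2 h pMCAO, -1.62, -1.30 and -1.46 in 6 h sham and 1.84, 1.24 and 0.84 in 6 h pMCAO. It stood above sham at 2 h without overlap, an effect that did not pass (limma adjusted p = 0.38), and was higher again at 6 h. Its sham means lay at percentile 12.7 of all genes at 2 h and percentile 13.3 at 6 h, and whether they were above background is unknown, so no fold is given. The change was 1.99 ± 0.30 (SE, n = 3 per group, limma adjusted p = 0.0178). The cytokine and chemokine list had 27 measured members, of which 1 rose and 0 fell, at a median change of 0.23. Ccl3, a close relative of Ccl4, was higher than sham at both times (2.27 and 4.12), and its change of 1.85 did not pass (limma adjusted p = 0.19). Ccl2 went from 0.68 to 2.63 and Il1a from 0.09 to 1.17 without passing (limma adjusted p = 0.331 and 0.0962). Ccl4 lost the call without 2 h sham replicate 1 or 6 h sham replicate 3 (limma adjusted p = 0.055 to 0.069).

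Osmr, the receptor subunit that binds oncostatin M, read 0.26, 0.15 and 0.20 in 2 h sham, 0.35, 0.43 and 0.44 in 2 h pMCAO, -0.02, -0.04 and 0.00 in 6 h sham and 2.35, 1.39 and 2.32 in 6 h pMCAO. All 6 h pMCAO arrays lay above the rest, with replicate 2 the lowest of them, and its change was 1.84 ± 0.27 (SE, n = 3 per group, limma adjusted p = 0.0136). Il6r, which encodes the ligand-binding receptor for interleukin 6, moved in both surgeries: it read 1.23, 1.12 and 1.42 in 2 h sham, 0.69, 0.70 and 0.65 in 2 h pMCAO, 0.56, 0.78 and 0.56 in 6 h sham and 1.26, 1.04 and 1.51 in 6 h pMCAO. It lay below sham in every 2 h pMCAO array and above sham in every 6 h pMCAO array. The 6 h pMCAO values overlapped those of 2 h sham. Its effect of -0.58 at 2 h did not pass and that of 0.64 at 6 h did (limma adjusted p = 0.106 and 0.0077), and the change was 1.21 ± 0.17 (SE, n = 3 per group, limma adjusted p = 0.0123). Among 15 measured genes of IL-6 family signalling, these 2 rose and 0 fell, against 0.171% and 0.0495% of all genes. All 15 estimates were above 0, against 46.5% of all genes, with a median of 0.50. Stat3, the transcription factor the family acts through, went from 0.04 to 0.85 and its feedback inhibitor Socs3 from 0.38 to 1.36, neither of which passed (limma adjusted p = 0.066 and 0.322). Osmr lost the call without 2 h sham replicate 1 (limma adjusted p = 0.0545).

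Nfkbia encodes the inhibitor that holds NF-kB in the cytoplasm and is itself induced by NF-kB. It read 2.81, 2.24 and 2.33 in 2 h sham, 1.96, 2.54 and 2.40 in 2 h pMCAO, 2.15, 1.94 and 2.15 in 6 h sham and 3.36, 3.06 and 3.30 in 6 h pMCAO. The 2 h groups overlapped and the 6 h groups did not, and the change was 1.32 ± 0.23 (SE, n = 3 per group, limma adjusted p = 0.037). It was the 1 member of 23 measured genes of NF-kB subunits, feedback, adhesion and innate sensing that rose, with 0 falls and a list median of 0.24. Rel, an NF-kB subunit, went from 0.52 to 1.36 (limma adjusted p = 0.0829) and the feedback gene Nfkbiz from 0.16 to 1.15 (limma adjusted p = 0.257). Nfkbia lost the call without 9 of the 12 arrays, all but 2 h sham replicate 2, 2 h pMCAO replicate 2 and 6 h pMCAO replicate 2 (limma adjusted p = 0.061 to 0.122), and with deposited values uncentred, after quantile normalization, after interquartile range scaling, after centring on the genes tested or with the replicate block (up to 0.088).

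The AP-1 subunit Jun read 2.27, 2.03 and 1.98 in 2 h sham, 2.73, 3.03 and 2.85 in 2 h pMCAO, 2.08, 2.13 and 1.92 in 6 h sham and 3.77, 3.79 and 3.69 in 6 h pMCAO. It was the single gene of the 40 that passed the threshold above sham at both times, and its effect grew from 0.78 to 1.71, a change of 0.93 ± 0.14 (SE, n = 3 per group, limma adjusted p = 0.0184). The other called member of the immediate early transcription factors, Ier5, read 2.20, 1.95 and 1.91 in 2 h sham, 1.87, 1.80 and 1.91 in 2 h pMCAO, 1.75, 1.47 and 1.58 in 6 h sham and 2.48, 2.24 and 2.85 in 6 h pMCAO, and its 6 h sham arrays lay below those of 2 h. Of 23 measured members 2 rose and 0 fell, against 0.171% and 0.0495% of all genes. The median change was 0.85 with 21 estimates above 0, against 46.5% of all genes. An unadjusted p under 0.05 for the change was reached by 13 of the 23 in limma, against 9.75% of all genes. The list was chosen with earlier results known, so these shares test nothing. Some other members had large estimates at both times and wide errors on the change. At 2 h only Jun and Fos of this list passed, so the 2 h estimates of Egr2 and Npas4 given here did not. Fos was 2.42 above sham at 2 h and 3.70 at 6 h (95% interval of the change 0.29 to 2.26, limma adjusted p = 0.356), and Egr2 0.80 and 2.89 (0.81 to 3.36, limma adjusted p = 0.207). Npas4, an activity-dependent neuronal transcription factor, differed from sham by 3.70 and 3.90. Its change of 0.21 had an interval of -1.83 to 2.24, and its 2 h pMCAO arrays ranged widely (2.02, 5.99 and 4.21). Its sham arrays read 0.77, 0.20 and 0.16 at 2 h and 2.59, 2.05 and 2.13 at 6 h, without overlap. Jun lost the call without 2 h sham replicate 1, 2 h pMCAO replicate 3, 6 h sham replicate 3 or 6 h pMCAO replicate 1 (limma adjusted p = 0.0522 to 0.0619). Ier5 lost the call without 10 of the 12 arrays, all but 6 h pMCAO replicates 2 and 3 (limma adjusted p = 0.0502 to 0.139), and after quantile normalization, after interquartile range scaling or after centring on the genes tested (up to 0.0677).

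Effectors of neuronal activity, the products of activity-induced transcription at synapses and in signalling, numbered 17 measured, of which 0 rose and 0 fell in limma and 12 had an unadjusted p under 0.05, against 9.75% of all genes. All 17 estimates of the change were above 0, against 46.5% of all genes, with a median of 0.89. Since the list was chosen with earlier results known, its shares test nothing. At 6 h 15 passed above sham and at 2 h 0, against 2.63% and 0.044% of all genes. Nptx2, a synaptic pentraxin, went from 0.34 to 2.13, Arc from 0.66 to 1.75, and Ptgs2, which encodes cyclooxygenase, from 0.94 to 2.02 (limma adjusted p = 0.167, 0.385 and 0.452). Passing at 6 h and not at 2 h is no test of the difference, which these genes did not pass. For some genes the estimates at the 2 times were close. Ccn1, a matricellular protein, was above sham by 1.50 and 1.62 (95% interval of the change -0.41 to 0.64), the nuclear receptor Nr4a3 by 1.24 and 1.12 (-0.81 to 0.57), and the small heat shock protein Hspb1 by 1.23 and 1.32 (-0.56 to 0.74). Of these effects, those of Nr4a3 and Hspb1 at 2 h did not pass (limma adjusted p = 0.0709 and 0.0572). Heat shock proteins and co-chaperones had a median change of 0.17, with 0 of 20 measured members called in limma. An unadjusted p under 0.05 was reached by 4 of them, against 9.75% of all genes.

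Of the metallothioneins, small proteins that bind zinc and copper, 2 rose. Mt1 read 2.10, 1.80 and 1.94 in 2 h sham, 2.02, 1.67 and 1.94 in 2 h pMCAO, 2.25, 2.20 and 2.27 in 6 h sham and 4.19, 3.67 and 4.62 in 6 h pMCAO. The 6 h pMCAO arrays lay above all others and the 2 h groups overlapped. The effect went from -0.07 to 1.92, a change of 1.99 ± 0.26 (SE, n = 3 per group, limma adjusted p = 0.00843). Mt1f went from 0.02 to 1.25, a change of 1.23 ± 0.20 (SE, n = 3 per group, limma adjusted p = 0.0241), but metallothionein genes are near copies whose probes may share signal. Mt2A was -0.30 at 2 h and 0.36 at 6 h (limma adjusted p = 0.201), and the haem-degrading enzyme gene Hmox1 went from 0.74 to 1.64 (limma adjusted p = 0.207). In the oxidative stress, haem and metal response list Mt1 was the 1 member of 17 that rose, with 0 falls and a median of 0.21. Mt1f lost the call without 7 of the 12 arrays, all but 2 h sham replicate 2, 2 h pMCAO replicates 1 and 2 and 6 h pMCAO replicates 2 and 3 (limma adjusted p = 0.0531 to 0.0958), and after quantile normalization (up to 0.054).

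Sat1, the rate-limiting acetyltransferase of polyamine breakdown, read 2.52, 2.48 and 2.66 in 2 h sham, 2.90, 3.23 and 3.13 in 2 h pMCAO, 2.10, 2.40 and 2.28 in 6 h sham and 3.75, 3.72 and 3.97 in 6 h pMCAO. It changed by 1.02 ± 0.16 (SE, n = 3 per group, limma adjusted p = 0.0178). Its pMCAO arrays were above sham at each time, without overlap, and its sham arrays were lower at 6 h than at 2 h. Its 2 h effect did not pass (limma adjusted p = 0.111). Insig1, which holds sterol-sensing proteins in the endoplasmic reticulum, went from 0.18 to 0.94, a change of 0.76 ± 0.13 (SE, n = 3 per group, limma adjusted p = 0.0334). It was the 1 called member of 15 measured cholesterol genes, with 0 falls and a median of 0.42. The synthesis enzyme genes Idi1 (0.37 to 1.06) and Mvd (0.11 to 0.73) did not pass (limma adjusted p = 0.28 and 0.066). Prkab2, a subunit of AMP-activated protein kinase, changed by 0.73 (limma adjusted p = 0.031). Hcar2, the receptor for niacin and ketone body hydroxybutyrate, changed by 0.95 (limma adjusted p = 0.0472). Hcar2 lay low on the arrays, at -0.77 in 2 h sham and 0.59 in 6 h pMCAO. Sat1 lost the call without 2 h sham replicate 1 or 3 or 6 h sham replicate 3 (limma adjusted p = 0.0536 to 0.0686), and after quantile normalization or after interquartile range scaling (up to 0.0768). Insig1 lost the call without 10 of the 12 arrays, all but 2 h pMCAO replicate 2 and 6 h pMCAO replicate 2 (limma adjusted p = 0.0522 to 0.118), and with deposited values uncentred, after quantile normalization, after interquartile range scaling, after centring on the genes tested or with the replicate block (up to 0.152). Prkab2 lost the call without 11 of the 12 arrays, all but 6 h pMCAO replicate 2 (limma adjusted p = 0.0606 to 0.109). Hcar2 lost the call without 10 of the 12 arrays, all but 6 h sham replicate 1 and 6 h pMCAO replicate 2 (limma adjusted p = 0.0722 to 0.157), and with deposited values uncentred, after quantile normalization or after centring on the genes tested (up to 0.0612).

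Zbtb16, a zinc finger repressor induced by glucocorticoids, read 2.54, 2.38 and 2.70 in 2 h sham, 1.92, 1.85 and 1.83 in 2 h pMCAO, 2.48, 2.48 and 2.39 in 6 h sham and 2.99, 2.76 and 3.07 in 6 h pMCAO. The pMCAO arrays were the lowest of the 12 at 2 h and the highest at 6 h, and sham values of the 2 times overlapped. Its effect was -0.67 at 2 h (limma adjusted p = 0.0193) and 0.49 at 6 h (limma adjusted p = 0.0134), and the change was 1.16 ± 0.14 (SE, n = 3 per group, limma adjusted p = 0.00589). Fam43a read 1.89, 2.02 and 2.05 in 2 h sham, 1.38, 1.34 and 1.10 in 2 h pMCAO, 1.79, 1.63 and 1.70 in 6 h sham and 2.15, 1.98 and 2.08 in 6 h pMCAO. Its pMCAO arrays lay below sham at 2 h and above it at 6 h, without overlap at either time. Its change was 1.08 ± 0.13 (SE, n = 3 per group, limma adjusted p = 0.00589). In the glucocorticoid-responsive list, 2 of 18 measured genes rose, Zbtb16 and Nfkbia, and 0 fell, against 0.171% and 0.0495% of all genes. The list median was -0.30 at 2 h, 0.25 at 6 h and 0.64 for the change, and 17 of the 18 changes were above 0, against 46.5% of all genes. In limma 14 of the 18 had an unadjusted p under 0.05 for the change, against 9.75% of all genes. This list was chosen with earlier results of these data known, so these shares describe it and test nothing. The co-chaperone gene Fkbp5 was below sham at 2 h (-0.83) and read -0.11 at 6 h, with a change of 0.72 that did not pass (limma adjusted p = 0.0748). Zfp189, a zinc finger protein, went from -0.96 to 0.64, a change of 1.59 ± 0.26 (SE, n = 3 per group, limma adjusted p = 0.025), although neither effect passed by itself. Rara, the alpha retinoic acid receptor, went from -0.29 to 0.61, a change of 0.90 (limma adjusted p = 0.0288). Zfp189 lost the call without 7 of the 12 arrays, all but 2 h sham replicate 2, 2 h pMCAO replicate 2, 6 h sham replicate 1 and 6 h pMCAO replicates 2 and 3 (limma adjusted p = 0.0552 to 0.0949), and after quantile normalization or with the replicate block (up to 0.065). Rara lost the call without 9 of the 12 arrays, all but 2 h pMCAO replicate 1 and 6 h pMCAO replicates 2 and 3 (limma adjusted p = 0.0502 to 0.109), and after quantile normalization (up to 0.054).

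Hes1, a repressor that is the classical target of Notch signalling, was the 1 rise in which the sham groups, rather than the pMCAO groups, lay apart. It read 1.35, 1.40 and 1.51 in 2 h sham, 0.90, 0.78 and 0.77 in 2 h pMCAO, 0.73, 0.83 and 0.63 in 6 h sham and 0.86, 0.96 and 0.77 in 6 h pMCAO. The 2 h sham arrays stood above all others, and the remaining 9 lay between 0.63 and 0.96. Sham was -0.69 at 6 h relative to 2 h (limma adjusted p = 0.000673) and pMCAO 0.05 (limma adjusted p = 0.716). The change of the effect was 0.74 ± 0.12 (SE, n = 3 per group, limma adjusted p = 0.0241). It was the 1 called gene of 21 measured Notch and BMP genes, whose median was -0.07. Hes5, its paralogue, went the other way without passing (0.15 at 2 h, -0.51 at 6 h, limma adjusted p = 0.066). Hes1 lost the call without 7 of the 12 arrays, all but 2 h pMCAO replicates 1 and 2, 6 h sham replicate 2 and 6 h pMCAO replicates 2 and 3 (limma adjusted p = 0.0578 to 0.0841), and with the replicate block (up to 0.0532).

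The other rises had no list of their own. C3h11orf96, an uncharacterized open reading frame, read 1.27, 1.02 and 0.90 in 2 h sham, 1.63, 1.66 and 1.51 in 2 h pMCAO, 1.26, 1.26 and 1.34 in 6 h sham and 3.63, 3.11 and 3.53 in 6 h pMCAO. It exceeded sham without overlap at both times and reached a 4.40-fold excess at 6 h, while its 2 h effect did not pass (limma adjusted p = 0.226). It changed by 1.60 ± 0.18 (SE, n = 3 per group, limma adjusted p = 0.00512). Rasl11a, a Ras-like small GTPase, read 0.02, 0.02 and -0.01 in 2 h sham, 0.14, 0.20 and 0.14 in 2 h pMCAO, 0.33, 0.32 and 0.26 in 6 h sham and 1.29, 1.36 and 1.39 in 6 h pMCAO, and arrays of a group lay close together. Its change was 0.89 ± 0.10 (SE, n = 3 per group, limma adjusted p = 0.00512), and its sham values rose as well between the times (0.29, limma adjusted p = 0.0114). The related Rasl11b changed by 1.24 (limma adjusted p = 0.0153), and Chst3, a chondroitin sulfotransferase that modifies matrix proteoglycans, by 1.05 (limma adjusted p = 0.0141). Chst3 was lower at 6 h than at 2 h in sham (-0.56) and higher in pMCAO (0.50). The RING finger gene Rnf39 (1.48), the FERM domain gene Frmd6 (1.29), Shkbp1 (1.10), Btaf1 (0.83), Arhgap25 (0.80), Irf2bpl (0.76), the deubiquitinase gene Usp36 (0.76) and the tRNA-modifying enzyme gene Trit1 (0.61) completed the 31, with limma adjusted p = 0.0123 to 0.037. In each of these 8 genes the 6 h pMCAO arrays lay above the other 9, as in 25 of the 31 rises and in 5% of all genes tested. The rises were chosen in these same arrays by a difference that high 6 h pMCAO values enlarge, so these shares test nothing. Rnf39, Frmd6 and Arhgap25 were below sham without overlap at 2 h, as were 7.44% of all genes. None of these 2 h effects passed (limma adjusted p = 0.562 to 0.761). Chst3, Frmd6 and Rnf39 lost the call without 2 h sham replicate 1 alone, each at limma adjusted p = 0.0542. Rasl11b lost the call without 2 h sham replicate 1 or 6 h sham replicate 2 or 3 (limma adjusted p = 0.0506 to 0.0578), and after interquartile range scaling (up to 0.0677). Shkbp1 lost the call without 9 of the 12 arrays, all but 2 h pMCAO replicate 1, 6 h sham replicate 1 and 6 h pMCAO replicate 2 (limma adjusted p = 0.0606 to 0.123), and after quantile normalization or with the replicate block (up to 0.0585). Btaf1 lost the call without 7 of the 12 arrays, all but 2 h sham replicate 2, 2 h pMCAO replicate 2, 6 h sham replicate 1 and 6 h pMCAO replicates 2 and 3 (limma adjusted p = 0.0521 to 0.0949), and with the replicate block (up to 0.0572). Arhgap25 lost the call without 9 of the 12 arrays, all but 2 h sham replicate 2, 6 h sham replicate 1 and 6 h pMCAO replicate 2 (limma adjusted p = 0.0593 to 0.121). Irf2bpl lost the call without 9 of the 12 arrays, all but 2 h pMCAO replicate 1, 6 h sham replicate 1 and 6 h pMCAO replicate 2 (limma adjusted p = 0.0704 to 0.131). Usp36 lost the call without 8 of the 12 arrays, all but 2 h pMCAO replicate 2, 6 h sham replicate 1 and 6 h pMCAO replicates 2 and 3 (limma adjusted p = 0.0513 to 0.0958), and after quantile normalization, after interquartile range scaling or with the replicate block (up to 0.0761). Trit1 lost the call without 10 of the 12 arrays, all but 6 h pMCAO replicates 2 and 3 (limma adjusted p = 0.0502 to 0.0958), and with the replicate block (up to 0.065).

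**Figure D3:**
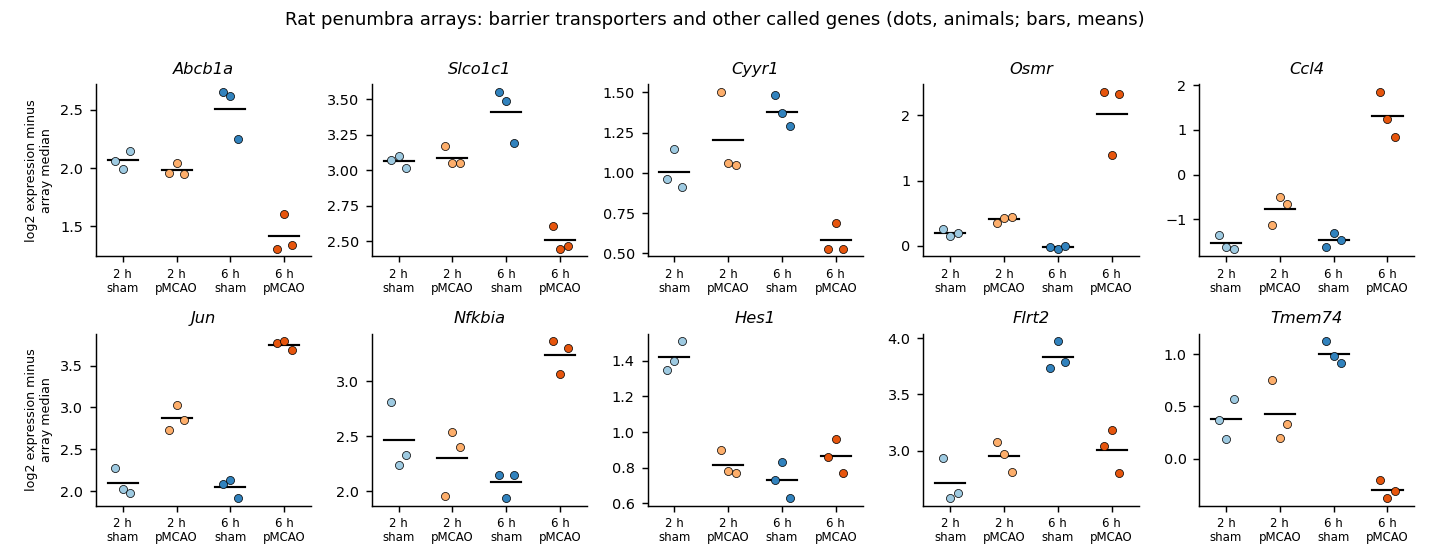
Log2 expression minus the array median (y axis, scaled per panel) in the 4 groups (x axis) for 10 further called genes, with 1 dot per animal and bars at group means. Abcb1a, Slco1c1, Cyyr1 and Tmem74 are lowest in 6 h pMCAO, and all but Cyyr1, where 1 array of 2 h pMCAO is highest, are highest in 6 h sham; Osmr, Ccl4, Jun and Nfkbia are highest in 6 h pMCAO, Hes1 is high only in 2 h sham and Flrt2 only in 6 h sham.

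The falls included 3 transporters of the blood-brain barrier. Slco1a4, which carries organic anions and steroid conjugates, read 1.93, 1.92 and 1.78 in 2 h sham, 2.06, 1.59 and 1.99 in 2 h pMCAO, 2.32, 2.55 and 2.16 in 6 h sham and 0.50, 0.77 and 0.04 in 6 h pMCAO. The 6 h pMCAO arrays were the lowest of the 12 by a wide margin, the 2 h groups overlapped, and the effect went from 0.00 to -1.91, a 3.75-fold deficit at 6 h. The change was -1.91 ± 0.24 (SE, n = 3 per group, limma adjusted p = 0.00782). Abcb1a, which encodes the drug efflux pump P-glycoprotein, read 2.06, 1.99 and 2.15 in 2 h sham, 1.96, 2.04 and 1.95 in 2 h pMCAO, 2.65, 2.62 and 2.25 in 6 h sham and 1.31, 1.61 and 1.34 in 6 h pMCAO. It changed by -1.00 ± 0.16 (SE, n = 3 per group, limma adjusted p = 0.0241). Slco1c1, a thyroid hormone transporter, read 3.07, 3.10 and 3.02 in 2 h sham, 3.17, 3.05 and 3.05 in 2 h pMCAO, 3.55, 3.49 and 3.19 in 6 h sham and 2.61, 2.45 and 2.47 in 6 h pMCAO. It changed by -0.93 ± 0.14 (SE, n = 3 per group, limma adjusted p = 0.0144). In both, pMCAO values were lower and sham values higher at 6 h than at 2 h, and each of those moves passed the threshold. Abcb1a lost the call without 7 of the 12 arrays, all but 2 h pMCAO replicates 1 and 2, 6 h sham replicate 3 and 6 h pMCAO replicates 2 and 3 (limma adjusted p = 0.0521 to 0.086). Slco1c1 lost the call without 2 h sham replicate 1 or 3 (limma adjusted p = 0.0521 to 0.0545).

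These were the 3 falls among 18 measured barrier transporters and tight junction genes, of which 0 rose, against 0.0495% and 0.171% of all genes. The list median of -0.07 was near that of all genes tested. An unadjusted p under 0.05 for the change was reached by 9 of the 18 in limma, against 9.75% of all genes. This list too was chosen with earlier results known, so its shares test nothing. The efflux transporter Abcg2 was -1.06 at 2 h and -1.57 at 6 h (95% interval of the change -1.20 to 0.18). Its 2 h estimate did not pass (limma adjusted p = 0.129). Occludin (Ocln), a tight junction protein, was -0.28 and -0.93, and claudin 5 (Cldn5) -0.24 and -0.28 (-0.44 to 0.36). The lactate carrier Slc16a1 (0.18 to 0.80) lay on the other side without passing (limma adjusted p = 0.226). The 7 measured endothelial markers averaged 0.92 to 1.14 in 2 h sham, 0.79 to 1.13 in 2 h pMCAO, 1.00 to 1.32 in 6 h sham and 0.73 to 1.08 in 6 h pMCAO, with Tie1 the dimmest at -0.02. Slco1a4 is itself 1 of the 7, and the 6 others had changes of -0.18 to 0.35, none of which passed in limma (0 at an unadjusted p under 0.05). In pieces of tissue, fewer cells of a type and less RNA per cell cannot be told apart, and the part of endothelial content in these falls was not tested.

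The other 6 falls differed in which group moved. Tnfrsf11b, which encodes the decoy receptor osteoprotegerin, read 1.23, 0.79 and 0.87 in 2 h sham, 2.02, 1.81 and 2.13 in 2 h pMCAO, 2.25, 2.07 and 1.99 in 6 h sham and 1.96, 1.88 and 1.70 in 6 h pMCAO. The 2 h sham arrays stood alone at the bottom, and the other 9 arrays lay between 1.70 and 2.25. Its excess of 1.02 at 2 h became -0.26 at 6 h, a change of -1.28 ± 0.18 (SE, n = 3 per group, limma adjusted p = 0.0123). Sham differed between the times by 1.14 (limma adjusted p = 0.000445) and pMCAO by -0.14 (limma adjusted p = 0.435). Flrt2, a membrane protein of axon guidance, read 2.93, 2.58 and 2.62 in 2 h sham, 3.08, 2.97 and 2.81 in 2 h pMCAO, 3.73, 3.97 and 3.79 in 6 h sham and 3.04, 3.18 and 2.80 in 6 h pMCAO. Its 6 h sham arrays stood above the other 9. Sham differed by 1.12 between the times against 0.05 in pMCAO. The effect changed by -1.07 ± 0.17 (SE, n = 3 per group, limma adjusted p = 0.0241). Clk1, a kinase of splicing factors, read 3.23, 3.12 and 3.34 in 2 h sham, 3.66, 3.67 and 3.72 in 2 h pMCAO, 3.95, 3.89 and 3.94 in 6 h sham and 3.52, 3.28 and 3.58 in 6 h pMCAO. It changed by -0.92 ± 0.13 (SE, n = 3 per group, limma adjusted p = 0.0123). Sham of Clk1 was higher at 6 h by 0.70, and pMCAO differed by -0.22 without passing. Its pMCAO arrays lay above sham at 2 h and below it at 6 h, without overlap at either time. At 2 h the effect did not pass (limma adjusted p = 0.0907). Tmem74, a transmembrane protein, went from 0.05 to -1.30, a change of -1.35 ± 0.19 (SE, n = 3 per group, limma adjusted p = 0.0123), with opposite moves of sham (0.63) and pMCAO (-0.72). Cyyr1 changed by -0.99 (limma adjusted p = 0.031), also with opposite moves. Qrfprl, a receptor-like gene, was above sham at 2 h (0.66) and not at 6 h (-0.08), a change of -0.74 (limma adjusted p = 0.0178). Here pMCAO values moved by -0.51. Flrt2 lost the call without 2 h sham replicate 2 or 3, 2 h pMCAO replicate 1, 6 h sham replicate 2 or 3 or 6 h pMCAO replicate 1 (limma adjusted p = 0.0587 to 0.0829). Tmem74 lost the call without 2 h sham replicate 1 (limma adjusted p = 0.0542). Cyyr1 lost the call without 7 of the 12 arrays, all but 2 h sham replicate 2, 2 h pMCAO replicates 1, 2 and 3 and 6 h pMCAO replicate 2 (limma adjusted p = 0.0606 to 0.112). Qrfprl lost the call without 2 h sham replicate 1 or 3, 2 h pMCAO replicate 3 or 6 h pMCAO replicate 1 (limma adjusted p = 0.0522 to 0.0709).

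Set side by side, the moves of the groups fell into 3 kinds. A group was said to have moved alone where its difference between the times was over 2 times that of the other group in size. By this rule pMCAO values moved in 26 of the 40 genes (65%), sham values in 4 (10%: Hes1, Tnfrsf11b, Flrt2 and Clk1), and both in opposite directions in 10 (25%). Over all genes tested the shares were 26.9%, 20.1% and 8.19%, and 44.8% moved in the same direction in both. A gene is called when the moves of the groups differ, so these shares describe the 40 and test nothing. Among the rises pMCAO moved in 24 of 31, and among the falls in 2 of 9 (Slco1a4 and Qrfprl). By the tests of the moves themselves, 23 rises had pMCAO up with sham not called, 6 had pMCAO up and sham down, 1 had both up (Rasl11a) and 1 had sham down alone (Hes1). All 9 falls had 6 h sham arrays above 2 h sham arrays without overlap, as had 25.1% of all genes, and 5 had 6 h pMCAO arrays below the other 9, as had 3.4%. Sham arrays of the 2 times did not overlap in 40.4% of all genes and pMCAO arrays in 40.3%. Between pMCAO and sham there was no overlap in 12.5% of all genes at 2 h and in 24.2% at 6 h. The 10 genes in which both moved were Il6r, Ier5, Chst3, Ddit3, Rara, Usp36, Slco1c1, Cyyr1, Abcb1a and Tmem74.

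**Figure D4:**
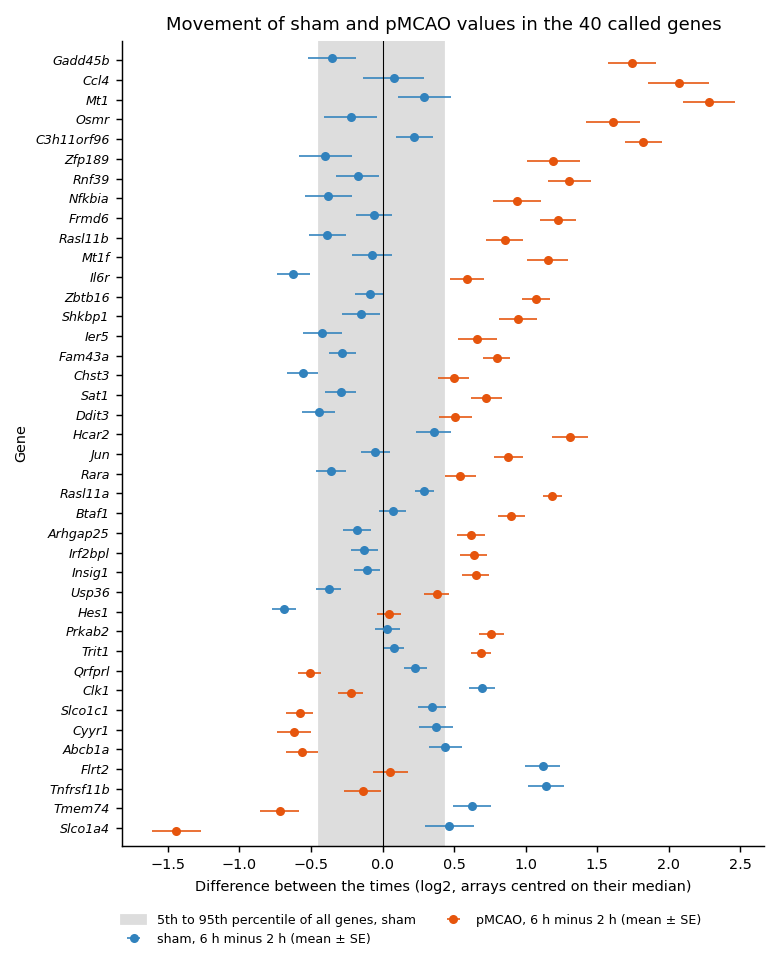
Difference between 6 h and 2 h (x axis, log2, arrays centred on their median) in sham (blue) and in pMCAO (orange) for the 40 called genes (y axis), as the difference of group means with its SE from limma, n = 3 per group. The grey band spans the 5th to 95th percentile of the sham difference over all 18166 genes (-0.45 to 0.43), and the sham values of Hes1, Clk1, Flrt2, Tnfrsf11b, Il6r, Chst3, Tmem74, Slco1a4 and Abcb1a lie outside it.

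These moves need the centring, since deposited values were lower at 6 h by a median of 0.81 in sham and 0.84 in pMCAO. After centring, the sham difference had a median of 0.05 over all genes and ran from -0.45 to 0.43 between the 5th and 95th percentile, and 3390 genes (18.7%) passed for it, 1335 of them lower at 6 h (7.35%), as did 4990 (27.5%) for the pMCAO difference. The class of a gene was the same in 35 of the 40 genes after quantile normalization, in 38 after scaling of the spread of each array and in 39 after centring on the median of the genes tested. Clk1, Nfkbia and Sat1 became genes with opposite moves after quantile normalization, and Rasl11b did so under all 3 settings. Slco1c1 became a gene in which pMCAO moved after quantile normalization and after scaling of the spread. Hes1, Tnfrsf11b and Flrt2 kept the class of sham under these 3 settings. With deposited values uncentred, 3 of the 40 kept their class.

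Across the other lists few members passed. None of 23 measured genes of hypoxia, glycolysis and angiogenesis was called in limma, with a median of 0.15. Slc2a1, the glucose transporter of the barrier, went from -0.11 to 0.72 and the vasodilator adrenomedullin (Adm) from 0.17 to 0.90 (limma adjusted p = 0.102 and 0.0748). In the matricellular, protease and plasminogen activator list 0 of 21 were called, with a median of 0.25. Tissue plasminogen activator (Plat) was above sham at both times, by 0.92 and 1.79, and its change of 0.86 missed the threshold (limma adjusted p = 0.066). Reactive astrocyte genes had a median of 0.34 with 0 of 20 called, and Timp1, a protease inhibitor on 2 of these lists, went from 0.81 to 2.31 (limma adjusted p = 0.125). Clock genes had a median of 0.25 with 0 of 17 called, the repressor Nfil3 being highest (1.30) and the output gene Dbp lowest (-0.71). Ion channels and glutamate and GABA receptors had medians of -0.04 and -0.12, with 0 of 24 and 0 of 18 called and estimates between -0.45 and 0.32. The 56 measured cytosolic ribosomal protein genes had a median of 0.13 and 0 called. An unadjusted p under 0.05 was reached by 10, 6, 7, 6, 4, 2 and 9 members of these lists in the order given, against 9.75% of all genes. Lists share members, so their counts are not separate.

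**Figure D5:**
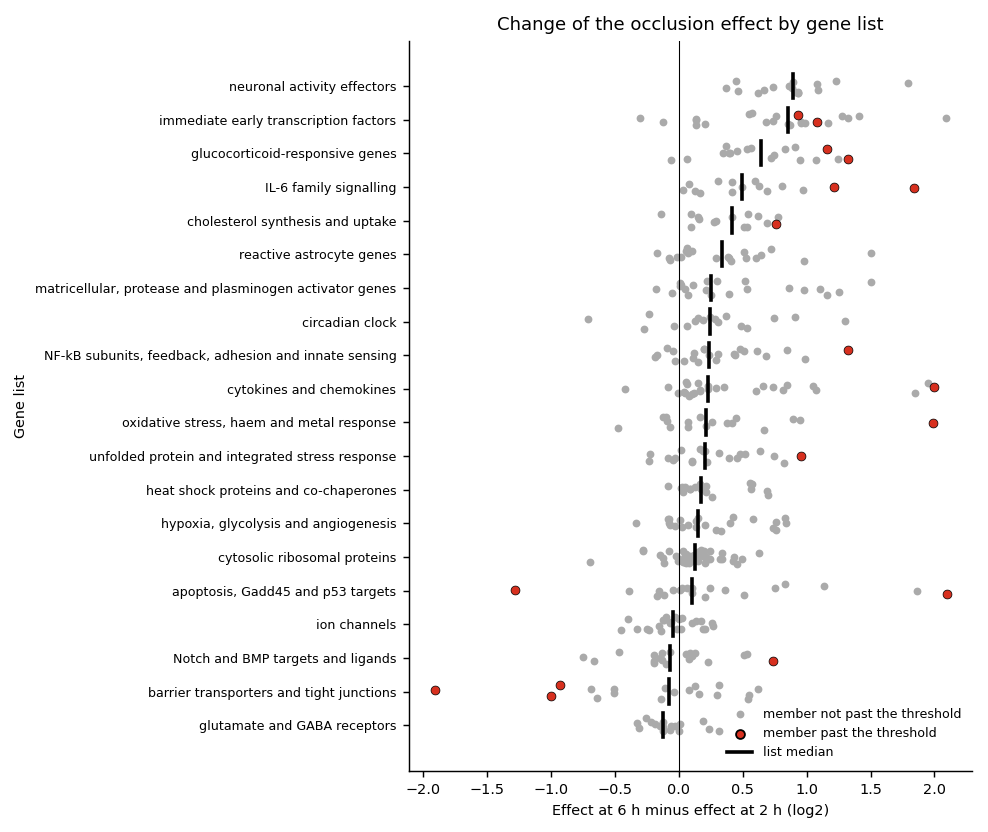
Change of the occlusion effect from 2 h to 6 h (x axis, log2) for each measured member of the 20 gene lists (y axis), ordered by list median (black bars), with members past the threshold in red. The medians run from -0.12 for glutamate and GABA receptors to 0.89 for neuronal activity effectors.

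Of the 16 lists of cell type markers, 15 held 0 called genes in limma, and the endothelial list held Slco1a4. The 15 lists, of 2 to 11 measured markers each, had 13 members at an unadjusted p under 0.05. As a share of their measured markers this is near the 9.75% of all genes, and it says nothing about cell content. Microglial markers averaged 1.29 to 1.45 in 2 h sham, 1.17 to 1.29 in 2 h pMCAO, 1.42 to 1.59 in 6 h sham and 0.83 to 1.21 in 6 h pMCAO. Of 10 measured, 6 passed below sham at 6 h and 0 at 2 h, against 3.02% and 0.0495% of all genes, and the median change was -0.42. The receptor genes Gpr34 (-0.17 to -1.51) and P2ry12 (-0.20 to -0.86) did not pass for the change (limma adjusted p = 0.0727 and 0.55). Neutrophil markers averaged -0.86 to -0.77 and -0.59 to -0.44 at 2 h and -0.93 to -0.87 and -0.57 to -0.40 at 6 h, in sham and pMCAO. This average of 11 measured markers was higher after pMCAO at each time without overlap. Of single genes, 5.06% lay above sham without overlap at 2 h and 9.09% at 6 h. The largest 2 h estimates were in Mmp8 (0.96), S100a9 (0.71) and S100a8 (0.59), and the others lay between 0.02 and 0.29. The averages lie below the array median, where no detection limit is known. Of the single markers, none passed at 2 h and 2 passed above sham at 6 h (Mmp8 and S100a9), against 0.044% and 2.63% of all genes. Their median change was 0.12. Markers of striatal projection neurons averaged 0.91 to 1.22 and 0.80 to 0.98 at 2 h and 0.95 to 0.96 and 1.03 to 1.05 at 6 h, with a median change of 0.31. The choroid plexus list had a median of 0.32 and averaged -0.60 to 0.86 over the 2 h sham arrays. The part of cell content in the called genes was not tested.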

How the data were processed

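RNA of 12 rats was measured on whole-transcript arrays, after extraction with the RNeasy kit and labelling with the WT PLUS kit, per the labels' protocols. The authors deposited log2 expression values, 1 table for the 12 rat arrays, and oligo and limma are the tools in the submitters' processing notes, without versions. How background was corrected, how arrays were normalized and which genome build was used is not given in the sources used here. No coordinates or sequences are given because the reference tables supplied are of mouse. Groups came from sample titles, since 1 time label reads 2 h for all 12 rat samples, 6 of which are titled 6 h.

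Each array was centred on its median over 36685 clusters. Where a symbol had several clusters (291 symbols), the brightest was used, and clusters with several symbols (575) or none (17599) were left out. Group means of the 12 arrays were estimated in limma 3.58.1 under R 4.3.3 (8 residual degrees of freedom, prior 5) with eBayes, two-sided, with Benjamini-Hochberg adjustment over 18166 genes at 0.05. The smallest exact permutation p for 3 against 3 arrays is 0.1. The fit was tested on simulated data. Any pair of arrays shared at most 2.49% of cluster values exactly. The rule for named genes took up to 15 rises and 15 falls past the threshold by size, filled to 10 by smallest p, and up to 3 members past it per list, leaving out microRNA and provisional symbols, 29 genes in all, of which Hes5 did not pass. Alternatives were 4 scalings, 3 choices of clusters or dim genes, 3 other spread models, the replicate block and leaving out each array. The 12 other called genes, and list members that did not pass, were named after their values were seen. Of 476 listed genes 430 were measured with a cluster of their own. Members, lists and tests were chosen with earlier results of these data known. Per the labels each array is a separate animal. Of 18 pairs of arrays with the same replicate number, 1 had a correlation of deviations from the group means over 0.1 (range -0.14 to 0.33). That pair was replicate 2 of 2 h sham and 2 h pMCAO, and what these arrays share was not tested. Otherwise the replicate numbers did not pair the arrays.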

Additional observations from a re-analysis of the deposited data

Results flagged for a closer look

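The difference between the effect at 6 h and that at 2 h was tested directly, and 40 genes passed (limma, Benjamini-Hochberg adjusted over 18166 genes). With 3 arrays per group, no test for a far value was run on single genes. The rises on the log2 scale were in Gadd45b (2.10), Ccl4 (1.99), Mt1 (1.99), Osmr (1.84), C3h11orf96 (1.60), Zfp189 (1.59), Rnf39 (1.48), Nfkbia (1.32), Frmd6 (1.29), Rasl11b (1.24), Mt1f (1.23), Il6r (1.21), Zbtb16 (1.16), Shkbp1 (1.10), Ier5 (1.08), Fam43a (1.08), Chst3 (1.05), Sat1 (1.02), Ddit3 (0.96), Hcar2 (0.95) and Jun (0.93). Smaller rises were in Rara (0.90), Rasl11a (0.89), Btaf1 (0.83), Arhgap25 (0.80), Irf2bpl (0.76), Insig1 (0.76), Usp36 (0.76), Hes1 (0.74), Prkab2 (0.73) and Trit1 (0.61). The falls were in Qrfprl (-0.74), Clk1 (-0.92), Slco1c1 (-0.93), Cyyr1 (-0.99), Abcb1a (-1.00), Flrt2 (-1.07), Tnfrsf11b (-1.28), Tmem74 (-1.35) and Slco1a4 (-1.91).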

How the results depend on the processing

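Of the 40 genes, 10 stayed past the threshold under all 23 alternatives and 25 under the 11 that kept all arrays, and 0 gene results reversed. The count of 40 was 42 with deposited values, 32 after quantile normalization (20 rises and 12 falls, 29 of the 40 kept), 42 after median and interquartile range scaling (25 and 17) and 42 after centring on the genes tested (29 and 13). It was 83 with the dimmest 25% of genes left out, where fewer genes were tested, 102 with trend and robust eBayes, 99 with array weights and 94 with the spread estimated per time, and for these the 40 were all kept and the cause of the rest was not tested. With the replicate block it was 35, with 31 of the 40 kept. Numbers shared between groups come from separate animals. Leaving out 1 array gave 11 to 126 genes.

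Genes called at 2 h were 17, and 35 with the dimmest 25% left out, 31 with trend and robust eBayes, 86 with array weights and 0 to 73 without 1 array. The 0 in limma came without 2 h sham replicate 3, where 795 genes had an unadjusted p under 0.05, and the 73 without 6 h pMCAO replicate 3. Genes called at 6 h were 1026, and 472 to 1096 without 1 array. Listed genes called for the change were 16 of the 430 measured, against 0.22% of all genes. That count was 31, 35, 37 and 36 with the dimmest 25% left out, trend and robust eBayes, array weights and the spread per time. Without 1 array it was 6 to 43. The share of called genes in which pMCAO values moved was 65%, and 31% with deposited values uncentred. The 3 arrays per group and unknown detection limits bound what dim genes can show.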

Other observations

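Genes called at 2 h had mixed courses. Of the 17, 8 were above sham and 9 below, and they were chosen for their effect at 2 h, so that a smaller value at 6 h is no evidence of a return. Fos, Ccl3, Ccn1, Plat and Jun were above sham at both times (limma), and Mir186 was below at both (-1.04 and -0.55). The lowest at 2 h were 5 small RNA genes: Mir181b1 (-2.65), Mirlet7f-1os (-1.80), Mir186, Mir190 (-0.93) and Mir376a (-0.85). At 6 h these read -1.45, -1.01, -0.55, -0.32 and -0.17, and none of the 5 passed for the change (limma adjusted p = 0.105 to 0.568). The olfactory receptor gene Or2y11 was 0.80 at 2 h and -0.11 at 6 h (change limma adjusted p = 0.0739). Over the 12 arrays Mir376a lay at percentile 0.895 of all genes by level and Mir190 at percentile 3.98, near the lowest values of the arrays, where no detection limit is known. These genes were named after their values were seen.

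Signs at the 2 times were set side by side for genes called at 6 h. Of the 478 genes above sham at 6 h, 342 (71.5%) had a 2 h estimate above 0, against 42.9% of all genes, with median effects of 0.61 at 6 h and 0.09 at 2 h. Of the 548 below sham at 6 h, 462 (84.3%) had a 2 h estimate below 0, against 56.9% of all genes, with medians of -0.45 and -0.11. Across all 18166 genes the effects at the 2 times correlated with r = 0.417, a description over genes, which are not replicates. The 2 effects come from different animals and sham groups on the same array type.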
